A study of Mus musculus with 9 samples.

Results

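The cytosolic ribosome is built from a large and a small subunit, and each of its proteins is encoded by its own gene. Of the 16299 genes in the deposited table, 80 carry the name of a cytosolic ribosomal protein, written Rpl or Rps with a number and at most a letter a, l, x or y, or are Rplp0, Rplp1, Rplp2 or Rpsa. They comprised 48 genes of the large subunit and 32 of the small subunit. The rule used names alone and no measured value, but this family was chosen for study with earlier results of these data known. Annotation placed 76 on autosomes and 4 on chromosome X, and marked 77 as protein coding and 3 as pseudogenes (Rpl6l, Rpl32l and Rps4l). Ribosomal proteins whose genes carry other names, such as Rps3a1, Rack1 and Fau, fall outside the name rule and are described among the related genes.

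The measurements were RNA sequencing of melanocytes, the pigment cells of the skin, purified by flow sorting from mouse epidermis, with 3 libraries in each of 3 groups. Control tail libraries came from tail epidermis of Spry1flox/flox mice. The knockout groups were taken from tail and from back epidermis of Spry1flox/flox mice that carried k14-Cre-ERT2, a Cre recombinase under the keratin 14 promoter, which is active in basal keratinocytes and not the promoter of a melanocyte gene. All groups thus shared the floxed Spry1 alleles, there was no control back group, and the labels give neither ages nor the use of tamoxifen. Whether each replicate is its own animal is not said in the labels, so the p-values speak only for the spread among these libraries, which may be technical.

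Ribosomal protein messages are among the most abundant in any growing cell, and their proteins are made in matched amounts because each ribosome holds a single copy of nearly all of them. In vertebrates these messages usually begin with a run of C and U bases just after the cap, the terminal oligopyrimidine or TOP motif, through which mTOR and LARP1 set how much of each is translated and stored. In skin the family has a known link to pigment cells. Mouse mutants of Rps19 and Rps20 have dark skin, because p53 rises in keratinocytes and these make more Kit ligand, which draws melanocytes into the epidermis.

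The start regions of these genes are shown first because the TOP motif is a feature that the name rule did not use. RefSeq start sites on GRCm38.p6 were found for 58 of the 80 genes, at 69 start sites. Each stretch below is 30 bases of the sense strand near a start site, with capitals marking the run of C and T bases. Only genes with such a run are shown here.

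Rpl34, chr3:130730333-130730362, minus strand: ctcacccgCCCCTTCCTTTTCCTCTTCCgg

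Rpl13a, chr7:45128722-45128751, minus strand: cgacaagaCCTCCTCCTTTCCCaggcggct

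Rpl5, chr5:107900500-107900529, plus strand: tacagccaCTCTTTCTCacgtcgcttgcgt

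Rps24, chr14:24490667-24490696, plus strand: cgctggggTCCTTCCTTgcgcgttgatatg

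Rps6, chr4:86857347-86857376, minus strand: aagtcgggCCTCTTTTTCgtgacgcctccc

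Rpl38, chr11:114668570-114668599, plus strand: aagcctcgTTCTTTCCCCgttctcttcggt

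Within a window of 50 bases, from 20 bases before to 30 bases after the listed start, a run of at least 8 C or T bases lay at 50.7% of the 69 start sites of ribosomal protein genes and at 19% of all 32851 listed starts. The same run on the other strand, read as A and G, lay at 8.7% of their starts and at 21.9% of all starts. The letters CTTTCC were counted anywhere in the window, inside such a run or not. They were found at 15.9% of ribosomal protein starts against 2.4% of all, and the reverse complement GGAAAG at 0 against 2.32%. A match describes letters in a window and not a mapped cap site. Relative to the listed start, the runs shown began at -17 (Rpl34), 3 (Rpl13a), -20 (Rpl5), -3 (Rps24), -1 (Rps6) and -2 (Rpl38). The run of Rpl5, 9 bases long, thus lay wholly before the listed start. The 34 genes with a run and the 24 without had close medians in the comparisons that follow. Their median differences were -0.34 and -0.32 for knockout tail minus control tail, 0.21 and 0.20 for back minus knockout tail, and -0.12 and -0.09 for back minus control tail, all on the log2 scale of the deposited values.

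Coding regions of this family are short, from 75 to 1257 bases with a median of 453, not counting the stop codon. The 2 sequences below, from the reference genome on GRCm38, belong to Rpl41, the shortest, and to Rpl38, which differed most between library sets. The start and the stop codon are in capitals.

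Rpl41, chr10:128548114-128549305, minus strand: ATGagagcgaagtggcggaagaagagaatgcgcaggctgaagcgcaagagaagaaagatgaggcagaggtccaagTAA

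Rpl38, chr11:114668524-114672331, plus strand: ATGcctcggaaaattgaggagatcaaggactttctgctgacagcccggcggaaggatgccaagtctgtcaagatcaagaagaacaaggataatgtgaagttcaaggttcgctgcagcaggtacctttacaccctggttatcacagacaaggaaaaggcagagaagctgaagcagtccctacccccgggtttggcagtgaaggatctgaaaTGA

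They encode proteins of 25 and 70 amino acids. The coordinates are those of the whole gene, introns and untranslated parts included.

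Some facts of the libraries bear on every value below. Recovered totals ran from 45.7 to 67.9 M (mega) counts. The third knockout tail and the third back library form a smaller set, and a gene-by-gene shift between that set and the other 7 libraries had been removed from the deposited values, so 2 scales are used. Deposited log2 values lack the shift, while normalised counts, recovered from them, still hold it. The smaller set has no control library, so removing the shift also took out part of any difference between knockout and control groups. Deposited differences against control tail carry that limit. Spry1 had 1074 to 1510 normalised counts in control tail, 587 to 3590 in knockout tail and 0 to 2283 in back, so these values do not show a deletion in the sorted cells. Which part of Spry1 is removed is not given in the sources used here. Xist, from the inactive X, had 1416 to 4223 in control tail, with the Y-linked Eif2s3y at 0 to 121. Knockout tail libraries 1 and 2 had Xist at 4 and 16 and Eif2s3y at 3948 and 4793, in the third Xist was at 7358 and Eif2s3y at 0, and all back libraries held both, at 1414 to 2645 and 2974 to 3843. In Eif2s3y the third knockout tail library thus went with the controls, against all other knockout libraries. It held many Xist counts, as did the controls and the back libraries, unlike knockout tail libraries 1 and 2. The part of these transcripts in the results was not tested. All 8 melanocyte markers were counted in every library. Those with recovered counts (Tyr, Mlana, Mitf, Sox10 and Kit) summed to 517674 to 537754 in control tail, 576027 to 690015 in knockout tail and 714881 to 841190 in back, without overlap between groups. The single markers did not all follow these sums. On deposited values 4 of the 8 were positive and 4 negative in back against knockout tail, with a median of 0.00. In back against control tail 6 were positive and 2 negative, with a median of 0.29.

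Ribosomal protein genes were abundant in these melanocytes. By mean deposited value 52 of the 80 lay in the top 10% of all genes, 79 lay above the median gene, and a single gene, Rpl32l, lay near the bottom, at percentile 10.2. Together they took 2.54%, 2.91% and 2.14% of all recovered counts in the control tail libraries. Their share was 1.92%, 2.01% and 1.15% in the knockout tail libraries and 1.95%, 2.24% and 1.39% in those from the back. All 3 knockout tail shares and 2 of the 3 back shares lay below the lowest control share. The third library had the smallest share of each group. In bulk RNA, a smaller share of cells of a type and less RNA per cell cannot be told apart.

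**Figure D1:**
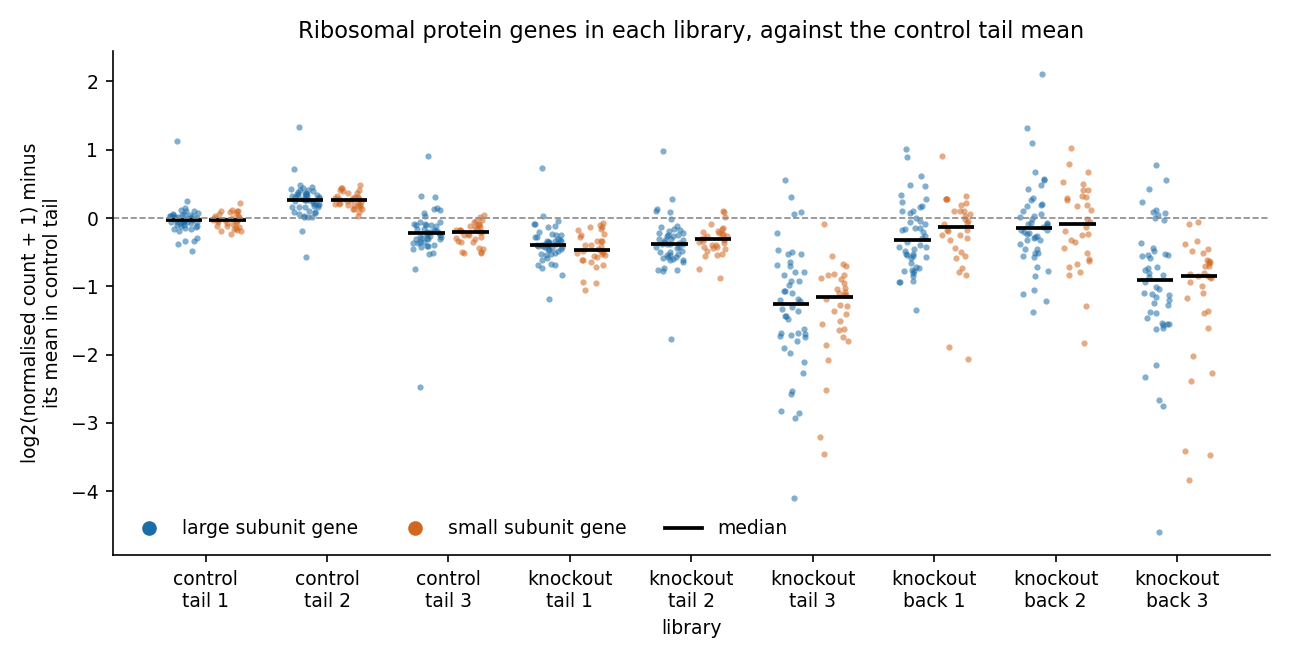
Level of each ribosomal protein gene in each of the 9 libraries, as log2 of the normalised count plus 1 minus the mean of that value over the control tail libraries; blue points are large and orange points small subunit genes, and black bars are medians. Over all 80 genes the medians were -0.03, 0.26 and -0.21 in the controls, -0.40, -0.35 and -1.20 in knockout tail, whereas the back libraries had -0.20, -0.13 and -0.86.

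Levels between genes were compared as normalised counts per kilobase of the annotated transcript. In control tail the highest mean levels were 76140 for Rpl13, 65308 for Rplp0, 57948 for Rps14 and 54443 for Rpl32. Rplp0 is the scaffold of the ribosomal stalk, which recruits the factors that drive translation, and Rps14 lies in the platform of the small subunit. The ranges of these 4 levels over the control libraries overlapped. Rpl13 had 58233, 76765 and 43168 normalised counts in the control libraries and Rps14 had 33588, 40178 and 30019, from transcripts of 780 and 597 bases. The lowest levels were 93 for Rpl32l, 1248 for Rps15a, 1629 for Rpl6l and 1848 for Rps20. For Rps15a and Rps20 this place rests on the annotated transcripts of 5130 and 3706 bases. Per kilobase of coding sequence they stood 68th and 63rd of the 77 coding genes, and Rpl41 stood first, with Rpl35 and Rps29 next. Median levels per kilobase were 15581 to 21595 for the large and 15873 to 23831 for the small subunit in control tail, 6910 to 15062 and 7774 to 16601 in knockout tail, and 9573 to 17410 and 10146 to 19656 in back.

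Large and small subunit genes were then compared with each other. The ratio of summed large to summed small subunit normalised counts was 1.56, 1.6 and 1.57 in the controls, 1.64, 1.51 and 1.74 in knockout tail, whereas the back libraries had 1.42, 1.6 and 1.72. The 2 highest ratios belonged to the smaller library set. On deposited values the large minus small subunit medians of the differences were -0.08 in knockout tail compared with control tail, 0.02 for back against knockout tail and -0.06 for back against control tail. Each was smaller than 0.15, the SD of the large minus small median between libraries of a group.

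In knockout tail against control tail, most ribosomal protein genes had lower values in knockout tail, by a small amount each, and no single gene passed the test. The difference was negative for 78 of the 80, with a median of -0.34, while 55.6% of all genes were negative, with a median of -0.05. With limma's adjusted p, 0 of the 80 passed 0.05, and so did 0% of all genes; 9 of the 80 and 814 of all genes had an unadjusted p under 0.05. On normalised counts, all 3 knockout tail libraries lay below all 3 control libraries for 49 of the 80 and for 9.31% of all genes, and none of the 80 lay above, against 9.7%. On deposited values the counts were 36 of the 80 below against 9.37%, and 0 above against 6.44%. With the smaller set left out, both knockout tail libraries lay below all controls for 50 of the 80, against 14.9% of all genes, and above for 0, against 14.3%, and the median difference was -0.36. Both of those libraries held little Xist and much Eif2s3y, the reverse of all controls. In this subset the knockout and that contrast thus cannot be told apart.

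**Figure D2:**
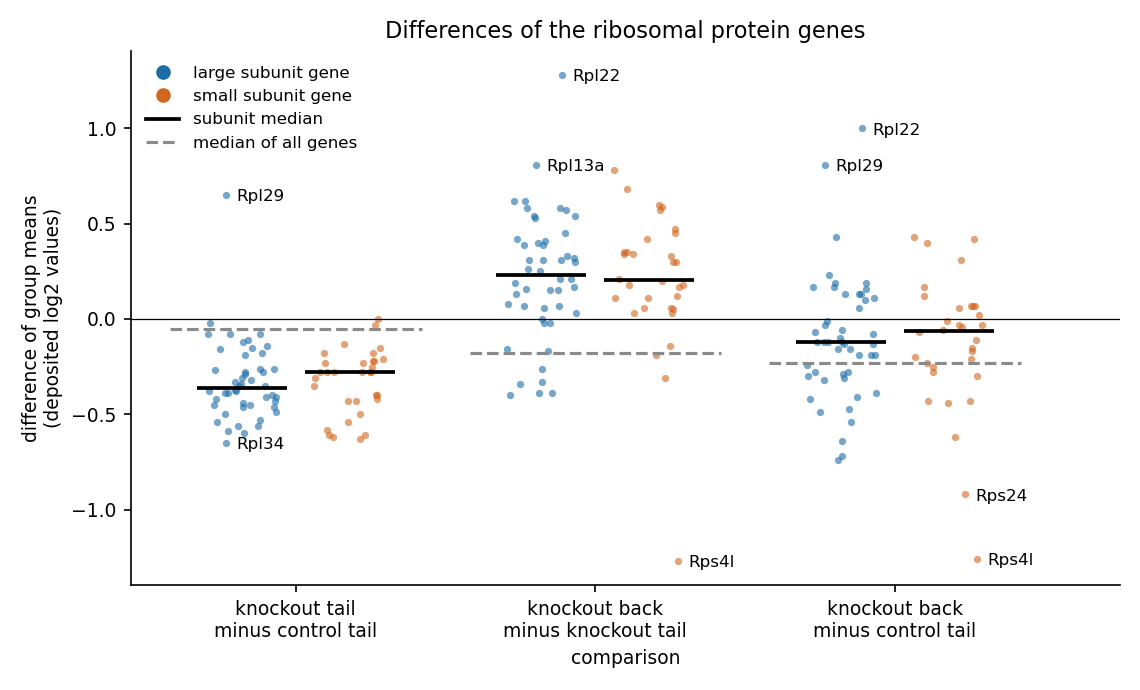
Difference of group means on the deposited log2 values for each of the 80 genes in the 3 comparisons; blue points are large and orange points small subunit genes, black bars are subunit medians and dashed lines the medians of all 16299 genes. In knockout tail minus control tail the subunit medians were -0.36 and -0.28, in back minus knockout tail 0.23 and 0.20, and in back minus control tail -0.12 and -0.07. Comparisons that share a group are not independent.

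The most negative difference belonged to Rpl34, a large subunit protein. It had 10208, 12275 and 10506 normalised counts in control tail. Knockout tail libraries had 6615, 7278 and 2940, and back libraries had 7623, 12403 and 6012. Its knockout tail libraries lay below all controls, and its back libraries overlapped them. The difference of knockout tail from control tail was -0.65 ± 0.23 (SE, limma adjusted p = 0.82, n = 3 per group). Rps27a, made as a fusion with ubiquitin, had 8236, 11966 and 9346 in control tail, against 5035, 6694 and 4526 in knockout tail, without overlap, and a difference of -0.63 ± 0.22 (limma adjusted p = 0.77). Rps20, one of the dark skin genes, had 5864, 9045 and 5639 against 3208, 4771 and 3747, also without overlap. Its difference was -0.62 ± 0.57 (limma adjusted p = 1.0), and its back libraries spread from 1797 to 13562. Rps24, of the small subunit, followed at -0.61 ± 0.32 (limma adjusted p = 1.0). The smallest adjusted p of the family in this comparison was 0.72, for Rpl35, at -0.54 ± 0.17.

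Few genes stood at the other end. Rps4l and Rpl6 had differences of 0.00 and -0.02, and Rpl29 one of 0.65 ± 0.74. Rpl29 had 10847, 12545 and 896 normalised counts in control tail, against 8240, 9833 and 7264 in knockout tail. Its positive difference rests on the third control library, since the other controls lay above every knockout tail library.

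The genes described next have a known role in signalling, a known place in the ribosome or lie on chromosome X, and their differences were negative but of unequal size. Rps19, the other dark skin gene, had 26334, 36189 and 18286 in control tail, against 18372, 21024 and 9761 in knockout tail, which overlapped, with a difference of -0.40 ± 0.24 (limma adjusted p = 1.0). Rps6, the substrate of S6 kinase, differed by -0.31 ± 0.20. Rpl5 and Rpl11, which travel with the 5S RNA and bind Mdm2 when ribosome assembly is disturbed, differed by -0.35 ± 0.25 and -0.42 ± 0.32. The stalk genes Rplp0, Rplp1 and Rplp2 differed by -0.31, -0.46 and -0.08. Rpsa, the laminin receptor protein of the small subunit, differed by -0.42 ± 0.19. The X-linked genes Rpl10, Rpl36a, Rpl39 and Rps4x differed by -0.12, -0.45, -0.40 and -0.13, with 1.0 as limma's adjusted p for each.

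The size of the knockout tail difference depended on the values used and on 1 library. From recovered counts, which keep the shift, the median over the 80 was -0.62 with limma-voom and -0.67 on log2 of the normalised count plus 1, against -0.03 over all genes in both. With the library set as a term in limma-voom, an alternative chosen after seeing the data, it was -0.39, against -0.26 over all genes. Without the second control library it was -0.22 on deposited values, against -0.04 over all genes. That library held the highest control value for 70 of the 80 genes and the highest of all 9 libraries for 48. It also had the highest control sum of basal keratinocyte markers (Krt14, Krt5, Krt15, Trp63, Itga6 and Col17a1), at 99934 normalised counts against 63565 and 38508 in the other controls. In knockout tail the sum was 35909, 12363 and 324383, and haemoglobin and Alas2 counts summed to 84023, 105763 and 2471, against 632 to 9216 in control tail. All 6 keratinocyte markers were counted in each knockout tail library, Trp63 was at 0 in the third control library, and Alas2 was at 0 in all controls. All 8 melanocyte markers had a positive difference in knockout tail against control tail, with a median of 0.24, and none passed the test. The part of these cells in the difference was not tested.

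In back against knockout tail, most ribosomal protein genes had higher values in back, against the direction of most genes, and again none passed the test. The difference was positive for 66 of the 80, with a median of 0.21, while 36.7% of all genes were positive, with a median of -0.18. No member was among the 244 genes past 0.05 by limma's adjusted p, which are 1.5% of all genes; 15 of the 80 and 3474 of all genes had an unadjusted p under 0.05. On deposited values all back libraries lay above all knockout tail libraries for 27 of the 80, against 7.53% of all genes, and below for 5, against 15.6%. On normalised counts these numbers were 6, against 4.55%, and 0, against 10.4%. The 6 were Rpl9, Rpl15, Rpl22, Rpl32l, Rps10 and Rps27a. In the third libraries, the pair of the smaller set, back lay above knockout tail for 67 of the 80 with a median of 0.37, against 48.2% of all genes and a median of 0.00. In the larger set alone the median was 0.19, against -0.26, with both back libraries above both knockout tail libraries for 33 of the 80, against 14.7% of all genes, and below for 10, against 31.1%.

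Rpl22, a large subunit protein that also binds cellular RNA, had the most positive difference. It had 1669, 1512 and 1148 normalised counts in knockout tail, 3338, 9423 and 2124 in back, and 1556, 2464 and 2688 in control tail. Every back library lay above every knockout tail library, and the second back library stood far above the others. The difference was 1.28 ± 0.41 (limma adjusted p = 0.13). Rpl13a, known for a role outside the ribosome in silencing inflammatory messages, had 12903, 14359 and 9490 in knockout tail, against 17961, 39884 and 13762 in back. These groups overlapped on normalised counts but not on deposited values, with a difference of 0.81 ± 0.28 (limma adjusted p = 0.15). Rps21 and Rps15a followed at 0.78 ± 0.35 and 0.68 ± 0.26 (limma adjusted p = 0.24 and 0.18). The Rps21 difference came from the larger set, where back had 9801 and 7548 and knockout tail 3667 and 3128, while the third libraries had 493 and 569.

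The most negative difference belonged to Rps4l, annotated as a pseudogene at chr6:148354656-148355598. It had 8707, 6693 and 4218 normalised counts in knockout tail, 2188, 6055 and 829 in back, and 9286, 10469 and 7997 in control tail. The back libraries lay below all controls. Against knockout tail only the second back library overlapped, and on deposited values none did. The difference was -1.27 ± 0.37 (limma adjusted p = 0.11). Its transcript matched that of the X-linked gene Rps4x at 80.1% of 797 aligned positions, and Rps4x itself had 16026, 16645 and 11958 in knockout tail, against 18869, 13854 and 13996 in back, a difference of 0.06 ± 0.18. Rpl6, Rpl5 and Rpl6l had differences of -0.40, -0.39 and -0.39. The pseudogene Rpl6l is 98.7% identical to Rpl6 over 871 positions, so reads of the pair may be split between them and their values are uncertain.

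Array quality weights, which lower the weight of libraries that fit the rest poorly, ended the absence of calls in this comparison. With them 14 of the 80 and 8.13% of all genes passed, 13 higher in back (Rpl9, Rpl13a, Rpl14, Rpl22, Rpl23a, Rpl34, Rpl35, Rpl41, Rps2, Rps7, Rps14, Rps23 and Rps27a) and Rps4l lower. Centring each library on its median moved the median of the 80 to 0.74 and that of all genes to 0.35, and 2 of the back libraries had 4628 and 6127 genes without a count, where no other library had more than 1739. Differentiated keratinocyte markers (Krt1, Krt10, Krt77, Lor, Flg, Ivl and Sbsn) summed to 4812, 11476 and 120201 in knockout tail, against 27930, 148282 and 45164 in back, with Krt77 at 0 in all 3 knockout tail libraries. Myeloid and Langerhans cell markers summed to 1607, 739 and 11008 in knockout tail, against 7348, 19982 and 23859 in back. Of these 7 markers 6 were positive and 1 negative, at -0.43. Of the marker genes, Mlana (0.95), Krt77 (4.92) and H2.Aa (2.96) rose and Col1a2 (-1.90) fell in back against knockout tail (limma adjusted p = 0.021, 0.022, 0.045 and 0.045). The 4 fibroblast markers, Col1a2 included, were 2 positive and 2 negative, with a median of -0.04. The granulocyte markers S100a8 and S100a9 summed to 9304 to 20798 in knockout tail, against 4291 to 6729 in back, without overlap. Their differences were -1.50 and -1.35, and 1 of the 2 was at 0 in the first and second back libraries. The part of these cells in the difference was not tested.

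In back against control tail the median of the family was small, its direction depended on the setting, and no gene passed the test. The difference was negative for 54 and positive for 26 of the 80, with a median of -0.12, while 66.3% of all genes were negative, with a median of -0.23. None of the 80 was among the 163 genes past 0.05, 1% of all genes; 9 of the 80 and 4255 of all genes had an unadjusted p under 0.05. All back libraries lay below all controls on deposited values for 8 of the 80, against 20.8% of all genes, and above for 2, Rpl22 and Rps7, against 8.68%. On normalised counts 16 lay below, against 15.6%, and 0 above, against 7.41%; in the larger set alone 17 lay below, against 29.9%, and 4 above, against 12.8%. The median was 0.01 without the second control library, 0.03 without the first and second back libraries and 0.44 with libraries centred on their medians, against -0.23, -0.10 and 0.33 over all genes. From recovered counts it was -0.46 with limma-voom, against -0.93 over all genes. Every back library held much Eif2s3y, at 2974 to 3843, and every control little, at 0 to 121. The knockout, the body site and that contrast thus cannot be told apart here. Myeloid and Langerhans cell markers summed to 846 to 2437 in control tail, against 7348 to 23859 in back, with a median difference of 1.21. Of these 7 markers 5 were positive and 2 negative, the lowest at -0.57. S100a8 and S100a9 summed to 11605 to 15849 in control tail, which did not overlap back. The 2 markers did not go together, since 1 had a difference of -0.99 and 1 of 0.16. In the first and second libraries of both groups 1 of the 2 was at 0. Mlana (0.97), Krt77 (4.29) and H2.Aa (3.06) rose in back (limma adjusted p = 0.036, 0.04 and 0.049), and the part of these cells in the difference was not tested.

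The genes at the negative end were Rps4l at -1.26 ± 0.37, Rps24 at -0.92 ± 0.32, Rpl5 at -0.74 ± 0.25 and Rplp1 at -0.72 ± 0.21 (limma adjusted p = 0.083, 0.12, 0.11 and 0.079). Rplp1, an acidic stalk protein, had 24444, 30266 and 21892 normalised counts in control tail and 14533, 12227 and 8212 in back, without overlap. Rplp0, the stalk scaffold, had 81430, 110893 and 73741 against 45872, 58773 and 39096, also without overlap, and a difference of -0.64 ± 0.19 (limma adjusted p = 0.08). The remaining stalk gene, Rplp2, had 9230, 11623 and 8609 against 8781, 13633 and 3272, which overlapped, and a difference of 0.13 ± 0.22. Without the third back library 6 of the 80 passed, all lower in back and among them Rpl5, Rplp0, Rplp1 and Rps24, together with 17.2% of all genes. In the larger set alone Rpl5 and Rplp1 passed, together with 14.5% of all genes, and with array weights Rps4l passed, together with 5.54%. At the positive end stood Rpl22 at 1.0 ± 0.41, Rpl29 at 0.81 ± 0.74, and Rps21 and Rpl13a at 0.43 each (limma adjusted p = 0.17, 0.53, 0.46 and 0.36).

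The members that departed most from the rest were found by the SD, over the 9 libraries, of the gene's deposited value minus the family median of that library. These were Rpl29 (0.98), Rps4l (0.80), Rpl22 and Rps20 (0.68 each), Rps24 (0.51) and Rpl5 (0.44). The departures had different shapes. Rpl29 stood apart in 1 library, the third control. Rps4l lay low in back, Rpl22 lay high in back, and Rps24 and Rpl5 had their lowest values in the second back library. Rps24, which is spliced in several forms, had 7908, 10889 and 7967 in control tail. Knockout tail libraries had 6410, 4813 and 4758, and back libraries had 5300, 2482 and 5411. For Rpl5 the control values were 19343, 20196 and 20502, the knockout tail values 15852, 16818 and 12268, and the back values 12723, 7688 and 14299. Rps20 ranged widely within back, at 1797, 13562 and 4767. At the steady end, Rpl12 and Rps16 had an SD of 0.10.

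**Figure D3:**
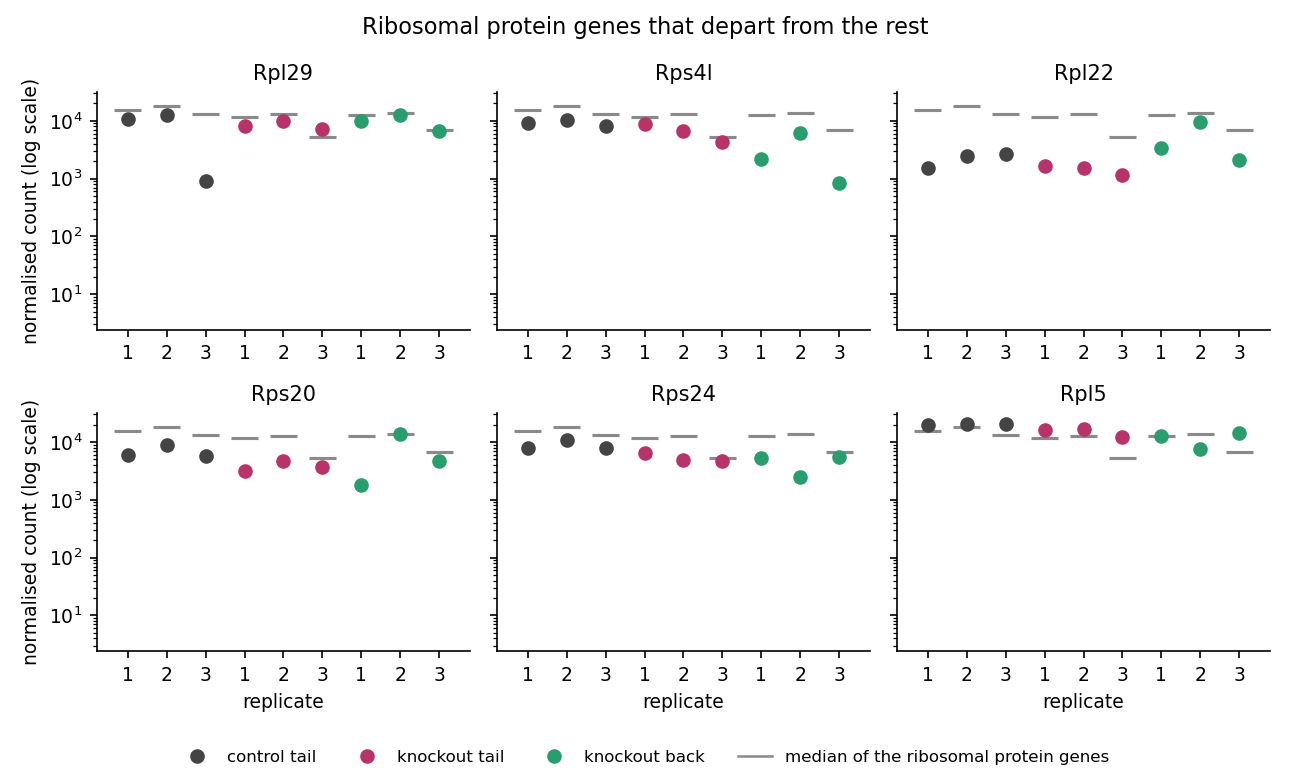
Normalised counts, on a log axis, of the 6 genes that departed most from the family, in each replicate of control tail (dark grey), knockout tail (red) and knockout back (green); short grey lines are the median of the 80 genes in that library. Rpl29 was at 896 in the third control library and at 6693 to 12545 in the other 8, and Rpl22 was at 9423 in the second back library.

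Close copies of some of these genes were counted as well. Rps27 had 15013, 19638 and 10272 normalised counts in control tail, against 7554, 9815 and 2519 in knockout tail, a difference of -0.61 ± 0.29. Its paralog Rps27l, a p53 target, had 14783, 17623 and 14573 against 11183, 13259 and 5071, a difference of -0.25 ± 0.19 (limma adjusted p = 1.0 for both). The transcripts of this pair matched at 77.4% of 257 aligned positions, whereas the retrogene Rps27rt matched Rps27 at all 341 aligned positions, so the count of Rps27 is uncertain. Rpl32l, 96.0% identical to Rpl32, had 9 to 63 normalised counts in the 9 libraries against 7769 to 37272 for Rpl32, and its values are uncertain for the same reason. Rows for other ribosomal pseudogenes, 134 in all, summed to 4.37% to 6.13% of the summed counts of the 80 genes.

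The removed shift between library sets was positive for most of this family, and it ran with the length of the coding sequence. Of the 80 genes 75 were higher in the larger set and 5 higher in the smaller, with a median of 0.84 (log2, larger minus smaller), while 39.3% of all genes were higher in the larger set, with a median of -0.16. The 10 genes with a coding length of up to 300 bases had a median shift of 2.16, a 4.48-fold higher level in the larger set. Medians were 1.06 for 300 to 400 bases, 1.01 for 400 to 500, 0.65 for 500 to 600, 0.52 for 600 to 800 and 0.25 above 800 bases, over 16, 22, 8, 13 and 8 genes. Across the 77 coding members Spearman's rho of shift and coding length was -0.76, and Pearson's r with log2 length was -0.71. The points share the same 9 libraries, so no p is given.

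Rpl38, printed above, and Rps29 had the widest gaps. Rpl38 had 19261, 16500 and 13537 normalised counts in control tail. Knockout tail libraries had 10217, 10781 and 947, and back libraries had 9930, 13524 and 668. The gene was 10.8-fold higher in the larger set. For Rps29 the control values were 15745, 18545 and 14320, the knockout tail values 10546, 13921 and 1471, and the back values 19500, 19411 and 1128, with a level 9.2-fold higher in the larger set. Both genes were thus at their lowest in the 2 libraries of the smaller set. Rpl41, with the shortest coding sequence, was 3.01-fold higher, less than Rps21, Rpl37a, Rpl37 and Rpl35 at 6.04, 5.92, 5.32 and 4.81. The 5 genes that were higher in the smaller set were Rpl10 (-0.60), Rpl7 (-0.29), Rpl4 (-0.23), Rpl7a (-0.17) and Rpl19 (-0.01). All of them have coding sequences of at least 588 bases.

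Other genes showed the same order to a lesser degree. Among 12623 other protein coding genes the rho of shift and coding length was -0.30, and among the 1194 of them with a mean deposited value over 13 it was -0.45. Those highly counted genes had median shifts of 0.95, 0.65, 0.35, 0.38, 0.14 and -0.21 in the same length classes, below the members' in each class. The smaller set also had the highest sums of basal keratinocyte markers, at 324383 and 189571 normalised counts against 12363 to 119701 in the other 7 libraries. Their part in the order by length was not tested. Within the larger set, the rho of a member's difference and its coding length was 0.41 for knockout tail minus control tail, -0.33 for back minus knockout tail and -0.15 for back minus control tail. On deposited values, short genes (under 300 bases) and long genes (over 800 bases) had median differences of -0.33 and -0.34 in knockout tail against control tail, 0.26 and 0.10 in back against knockout tail, and -0.10 and -0.30 in back against control tail, over 10 and 8 genes.

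Other genes of the translation machinery were set beside the family, and with group as the only term none of the 241 passed the threshold in any comparison. With the library set as a term Eif4e (-1.50), Nolc1 (-3.65), Polr1e (-2.34) and Vim (-0.97) fell in back against control tail (limma adjusted p = 0.048, 0.047, 0.041 and 0.023). Other settings gave 0 to 28 calls among the 241, the most without the third back library. Of the 13 listed ribosomal genes with other names, 10 were in the table, with medians of -0.16 in knockout tail compared with control tail, 0.06 for back against knockout tail and -0.11 for back against control tail. Among them Rps3a1, the form of Rps3a in mouse, had 24177, 31303 and 22403 normalised counts in control tail, against 13777, 20002 and 16442 in knockout tail, without overlap, and a difference of -0.57 (limma adjusted p = 0.85). Rack1, a scaffold on the small subunit, differed by -0.05. Other genes known for TOP messages, among them translation factors, Npm1, Vim and the hosts of small nucleolar RNAs, numbered 24, of which 20 were negative in knockout tail against control tail, with a median of -0.26. Eef1a1, which carries aminoacyl tRNA to the ribosome, had 78500, 93007 and 80247 in control tail. Knockout tail libraries had 64218, 62201 and 90312, and back libraries had 75796, 94494 and 117384. The third libraries were not its lowest, and its shift was -0.41, against 0.84 for the median ribosomal protein gene. In back against knockout tail the 24 had a median of 0.02, with 12 positive.

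Genes that make ribosomes had negative medians in all 3 comparisons, and so did all genes, at -0.05, -0.18 and -0.23. The 50 ribosome biogenesis genes had medians of -0.22 in knockout tail against control tail, -0.39 in back against knockout tail and -0.56 in back against control tail, and the 78 mitochondrial ribosomal protein genes had -0.22, -0.14 and -0.33. RNA polymerase I and its factors (16 genes) had -0.11, -0.06 and -0.32, with 8 positive and 8 negative in each of the first 2 comparisons and a median of 0.06 for knockout tail in the larger set alone. With libraries centred on their medians, back had medians of 0.14 against knockout tail and 0.00 against control tail for biogenesis, 0.47 and 0.24 for polymerase I and 0.39 and 0.23 for the mitochondrial ribosome, while all genes had 0.35 and 0.33. As deposited, the 25 regulators around mTOR, S6 kinase and cap binding had -0.05, -0.25 and -0.21. The 18 genes of the p53 response, Kit ligand included, had medians of 0.07, -0.13 and 0.15. Trp53 had 2768, 3603 and 2081 normalised counts in control tail, against 6220, 4805 and 6110 in knockout tail, without overlap, yet its deposited difference was 0.65 with an adjusted p of 1.0 by limma. Cdkn1a, a p53 target, had 27165, 43340 and 35608 against 20936, 15054 and 25252, with a difference of -0.67 (limma adjusted p = 1.0). Kitl had 252, 377 and 1487 in control tail. Knockout tail libraries had 853, 365 and 1361, and back libraries had 9, 5 and 683. Back differed from knockout tail by -1.42 (limma adjusted p = 0.15). The 20 genes of ribosome quality control in the table had medians of 0.02, -0.28 and -0.19.

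**Figure D4:**
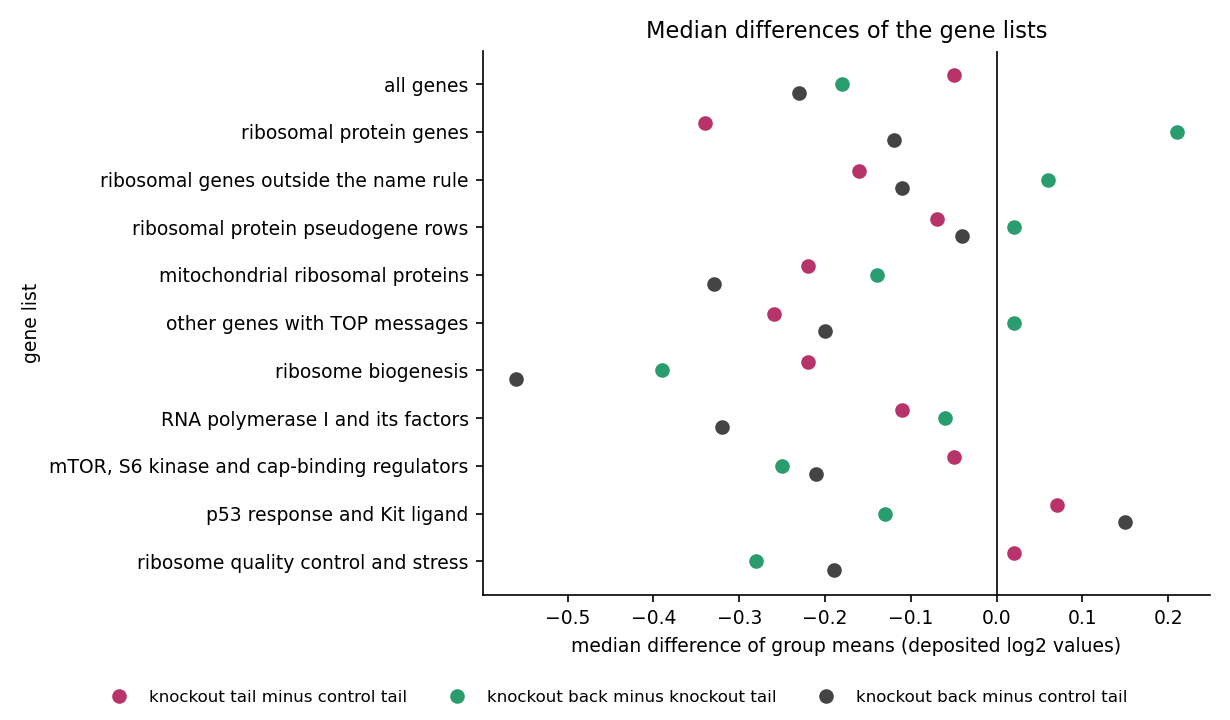
Median difference of group means on the deposited log2 values for the ribosomal protein genes and each related gene list, in the 3 comparisons (red for knockout tail minus control tail, green for back minus knockout tail, dark grey for back minus control tail). The ribosomal protein genes had the lowest median of the lists shown in knockout tail minus control tail (-0.34) and the highest in back minus knockout tail (0.21); comparisons that share a group are not independent.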

How the data were processed

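Total RNA was taken up in Trizol and amplified with the SMART-Seq v4 low-input chemistry before paired-end sequencing, per the labels. The deposited values are 1 table of 16299 genes by 9 libraries on a log2 scale, from 5.85 to 20.95. DESeq2 and GRCm38 are named in the submitters' processing notes. For the aligner, counter and strand setting, nothing is given in the sources used here.

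The values followed a variance-stabilising curve with 7.98 at a count of 0, which understates changes of genes with few counts. For each gene, knockout tail 3 and knockout back 3 had together the same mean as the other 7 libraries, to within 7.14e-09 (next best of 255 splits, 1.5), so a shift between these sets had been removed before deposit without regard to group. Undoing both gave whole counts (tolerance 0.004) for 16296 genes, all but Dct, Pmel and Tyrp1. Normalised counts are these counts divided by the library's size factor.

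Differences were tested with limma 3.58.1 (R 4.3.3; mean-variance trend, robust moderation, group as the only term, all 9 libraries, no filter, Benjamini-Hochberg over all genes, threshold 0.05), after a test on simulated data. The fit with group as the only term took no account of the shift removed before deposit. An exact permutation test of 3 against 3 cannot go below 0.1. Counting error was not compared with the spread between libraries, and it bears most on genes with few counts, such as Rpl32l. Genes were matched by name to GENCODE release M21 (15904) or a RefSeq synonym (2), and 393 did not match. The transcript is a coding one with the best APPRIS and support level, the shortest where several tie. Start sites are from RefSeq, GRCm38.p6. Alternatives were array weights, a library set term, a replicate block, centring, recovered counts, low-value filters and leaving out libraries.

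The ribosomal protein genes and the gene lists were chosen with earlier results of these data known. Named were members with a fixed role, the 4 most positive and 4 most negative in each comparison, the 4 highest and lowest by length-scaled level and the 6 that departed most; Rpl35, Rps10 and others outside this rule were chosen after their values were seen, and some items are not reported here. Endothelial markers were not in the table. Fibroblast, T cell and muscle marker sums lay between 6 and 3228 normalised counts per library. Schwann cell markers, 2 in the table, summed to 7258 to 13558 in the tail libraries, against 26255, 19289 and 47129 in back. On deposited values both were higher in back than in knockout tail (0.48 and 1.34). Against control tail 1 was higher (1.25) and 1 lower (-0.35). Their part in the results was not tested.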

Additional observations from a re-analysis of the deposited data

How the results depend on the processing

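Of 660 results for named genes under an alternative, 9 passed the threshold. Of the others 65 moved by more than their standard error and 586 by less. These 660 do not cover every named gene in every comparison. Outside them, Rpl34, Rpl41, Rps14 and Rps27a passed with array weights in back against knockout tail. Rplp0 passed without the third back library in back against control tail. The number of ribosomal protein genes past the threshold was 0 in every setting for knockout tail against control tail, 14 with array weights for back against knockout tail, and for back against control tail 1 with array weights, 2 in the larger set alone (an alternative chosen after seeing the data) and 0 to 6 with 1 library left out. The number of all genes called varied more: 0, 244 and 163 in the 3 comparisons as reported, 10, 71 and 545 with the library set as a term, 0, 168 and 317 with limma-voom on recovered counts, and 0, 2 and 7 with only the groups compared. With 1 library left out it was 3 to 1972 for back against knockout tail and 0 to 2804 for back against control tail, the highest without the third back library, and each of the 9 libraries moved both counts by over 1.5 times when left out. The median for knockout tail against control tail was -0.62 (limma-voom) and -0.67 (log2 of the recovered normalised counts plus 1) and -0.43 to -0.22 with 1 library left out. For back against knockout tail it was 0.74 (centred on library medians) and 0.35 (without the first and second back libraries). For back against control tail it was 0.44 (centred), -0.46 (limma-voom), -0.44 (log2 of recovered counts), 0.03 (without the first and second back libraries) and -0.20 to 0.01 with 1 library left out. The cause of these moves was not tested. The difference of large and small subunit medians stayed between -0.09 and 0.07.

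Replicate numbers are shared between groups, but same-numbered libraries did not deviate together (correlations of -0.17 to 0.08), so the numbers were not taken as pairs. The third knockout tail and back libraries had -0.70, which says nothing of pairing, since the removed shift fixed their joint mean. With the replicate block 0, 21 and 42 genes were called in the 3 comparisons, 0 of them ribosomal protein genes in each, and the medians stayed at -0.34, 0.21 and -0.12.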
